A study of Mus musculus with 4 samples.

Results

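The genes described were the 8 members of the PD-1 axis and its companion exhaustion receptors: Pdcd1, Cd274, Pdcd1lg2, Lag3, Havcr2, Lgals9, Tigit and Tox. They were chosen by symbol from the 30905 genes of the count matrix, and each symbol matched 1 row. Hearts from male Balb/C mice (2 allogeneic grafts) or male C57BL/6J mice (2 syngeneic grafts) had been placed in the abdomen of C57BL/6J recipients. They were profiled whole on day 5 by droplet-based 3′ single-cell RNA sequencing. Every graft, the syngeneic ones included, had thus been through surgery and could hold recipient cells that had entered it. Donor or recipient origin of the cells was not tested. The 4 libraries came as 1 merged matrix in which a barcode suffix from 1 to 4 marks the library. No source used here pairs a suffix with a graft, so no library is called allogeneic or syngeneic below and the graft types were not compared. Cell types were set side by side within libraries, where 4 pairs cannot give an exact two-sided permutation p below 0.125. All intervals are exact 95% intervals that cover counting error only.

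Of 53824 barcodes, 44626 passed the filters, 2231 of these were marked as doublets and left out, and 42395 cells were used, with 9806, 12496, 9358 and 10735 cells in libraries 1 to 4 and medians of 5331.5, 4576, 8579 and 11891 unique molecular identifiers (UMIs, counted mRNA molecules) per cell. Libraries shared barcodes, 308 in all and 187 among the used cells. The cells formed 26 clusters, of which 24 were named after marker genes and grouped into 12 classes, written "-like" because they rest on markers. Several classes came largely from 1 library: 5892 of 8565 macrophage-like cells and 1404 of 1866 T/NK-like cells carried suffix 4, and 2735 of the 2756 cells of the larger granulocyte-like cluster carried suffix 2. Library and cell state cannot be told apart there, so the main levels of the members are also given by library. Levels are on the CPM scale, with the summed UMIs of a gene divided by the total UMIs of a group of cells after removal of mitochondrial genes, and they are compared within a gene and not between genes. The T/NK-like cluster carried all 12 of its markers. The dendritic-like cluster carried only 3 of its markers (Flt3, Ccr7 and Fscn1) at a median of 1215 UMIs. Its pooled levels and counts below are those of a shallow class that may be mixed.

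PD-1, the product of Pdcd1, is an inhibitory receptor that T cells put on their surface after their antigen receptor is engaged, and it dampens signalling through recruited phosphatases when it binds PD-L1 (Cd274) or PD-L2 (Pdcd1lg2). LAG-3, TIM-3 (Havcr2) and TIGIT are further inhibitory receptors found on activated and on exhausted T cells, galectin-9 (Lgals9) is a binding partner of TIM-3, and TOX is a transcription factor of the exhausted state that is also used in the development of T and NK cells. Interferon-gamma is a known inducer of Cd274. Shared expression of these receptors marks recent activation as well as exhaustion.

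Cd274 and Pdcd1lg2 are neighbours on chromosome 19 of GRCm38, on the plus strand, with 22823 bases between the end of the first and the start of the second. Promoter windows (250 bases before to 50 after the start, RefSeq, GRCm38.p6) matched 6 of the 8 genes. The 3 ligand promoters are shown because the ligands parted in their levels: Cd274 and Lgals9 were both high in endothelial-like cells of library 4, and Pdcd1lg2 was not. Capitals mark the letters GAAANNGAA, an interferon-response type of motif, or its reverse complement TTCNNTTTC. The windows are chr19:29367188-29367487 (plus strand), chr19:29410669-29410968 (plus strand) and chr11:78984875-78985174 (minus strand).
Cd274: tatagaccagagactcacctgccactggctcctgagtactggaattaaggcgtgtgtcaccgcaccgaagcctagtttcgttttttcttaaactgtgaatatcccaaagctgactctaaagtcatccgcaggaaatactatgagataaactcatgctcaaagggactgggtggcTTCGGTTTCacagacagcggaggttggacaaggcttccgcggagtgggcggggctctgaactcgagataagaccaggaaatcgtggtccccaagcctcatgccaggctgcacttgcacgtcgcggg
Pdcd1lg2: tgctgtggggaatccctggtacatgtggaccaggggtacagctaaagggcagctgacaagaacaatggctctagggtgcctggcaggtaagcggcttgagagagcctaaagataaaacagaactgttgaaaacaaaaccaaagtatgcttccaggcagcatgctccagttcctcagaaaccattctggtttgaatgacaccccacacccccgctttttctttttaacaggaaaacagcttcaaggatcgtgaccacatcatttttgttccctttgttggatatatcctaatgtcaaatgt
Lgals9: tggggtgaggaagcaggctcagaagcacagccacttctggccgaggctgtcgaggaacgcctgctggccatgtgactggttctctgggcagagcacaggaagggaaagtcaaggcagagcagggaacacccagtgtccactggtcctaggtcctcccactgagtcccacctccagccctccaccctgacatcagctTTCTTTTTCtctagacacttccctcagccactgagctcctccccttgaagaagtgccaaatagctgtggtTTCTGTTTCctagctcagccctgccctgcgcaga
This motif stood once in the Cd274 window, at base 175 from its 5′ end, and at bases 197 and 267 of the Lgals9 window. It was in none of the windows of Pdcd1lg2, Pdcd1, Havcr2 and Tigit, and in 8.56% of all 32851 windows of the same length. A second motif, TTCNNNGAA, which reads the same on both strands, was in none of the 6 windows and in 8.3% of all windows. These matches describe letters only.

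With the libraries pooled, the receptors and Tox were highest in T/NK-like cells, although Havcr2 did not differ there beyond counting error from dendritic-like cells (53.46 and 51.1 CPM), while the ligands were highest elsewhere. Against all other cells of the same library, the T/NK-like level was higher in 4 of 4 libraries for Pdcd1 and Tox, with mean log2 differences of 5.52 ± 0.69 and 4.93 ± 0.34 (SD, n = 4, 1 CPM added; exact sign-flip permutation p = 0.125 for each, the smallest possible). It was higher in 3 libraries for Lag3 (1.06 ± 2.42, exact p = 0.625) and in 2 for Havcr2 (-0.84 ± 1.75, exact p = 0.5), so the pooled order of these receptors rested on library 4. In the T/NK-like class 6 of the 8 genes were at least 2-fold above all other cells with 1 CPM added to both levels, against 8.65% of all 19032 genes; the other two, Cd274 and Lgals9, were not. With 10 CPM added it was 5, since Tigit no longer passed. Within libraries, T/NK-like Pdcd1lg2 was higher in 3 of 4, with a wide spread (1.255 ± 3.572, SD, exact permutation p = 0.375). T/NK-like Tigit was higher in 3 of 4 (1.259 ± 1.006, SD, exact permutation p = 0.25). In macrophage-like cells 3 genes passed (Cd274, Pdcd1lg2 and Havcr2, background 6.92%) and in dendritic-like cells 2 (Pdcd1lg2 and Havcr2, background 4.42%). In granulocyte-like cells 1 passed (Pdcd1lg2, background 5.33%) and in endothelial-like cells 0 (background 8.76%). Within libraries, macrophage-like Cd274 was higher in 2 and lower in 2 (mean log2 difference 0.065 ± 1.26, SD). Macrophage-like Pdcd1lg2 was higher in 3 of 4 (0.28 ± 0.87, exact permutation p = 0.375). Endothelial-like Lgals9, which did not pass, was higher in 4 of 4 (1.385 ± 0.457, exact permutation p = 0.125).

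**Figure D1:**
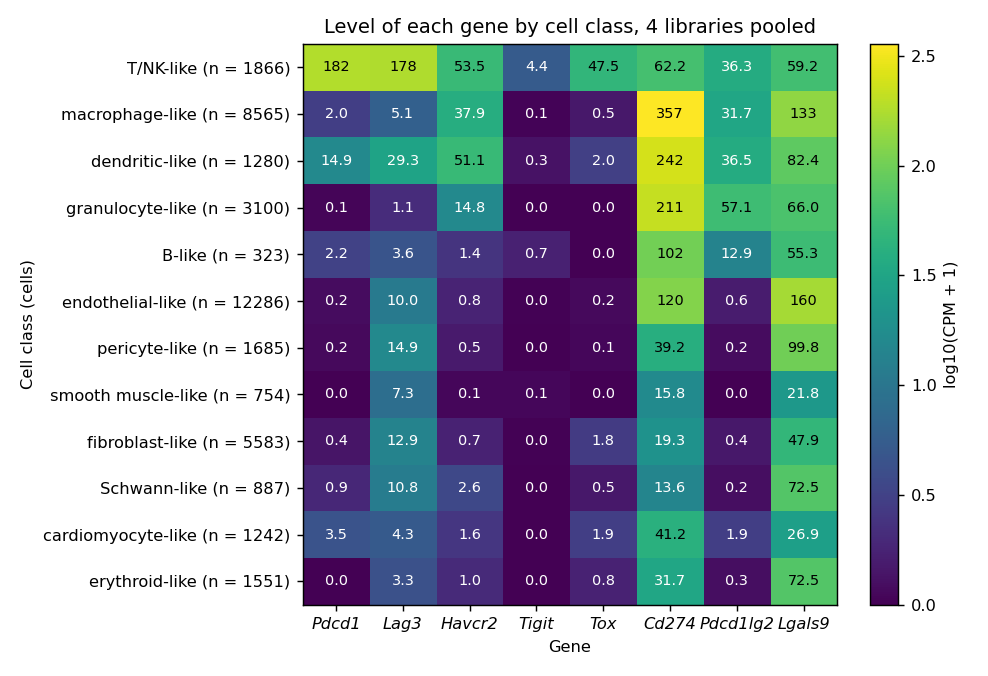
Level of each of the 8 genes in 12 cell classes, as CPM over the 4 libraries pooled, with colour as log10(CPM + 1) and the CPM printed in each cell. Pdcd1, Lag3 and Tox peak in T/NK-like cells, Cd274 in macrophage-like cells at 357.4 CPM, Pdcd1lg2 in granulocyte-like cells at 57.15 CPM and Lgals9 in endothelial-like cells at 159.7 CPM.

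Pdcd1 was the most restricted gene with a sizeable count. T/NK-like cells held 91.3% of its 5074 UMIs, at 181.7 CPM (176.5 to 187.0), against 2.01 CPM in macrophage-like and 0.219 CPM in endothelial-like cells. By library, the T/NK-like level was 42.9, 35.2, 101.5 and 198.4 CPM, from 61, 26, 89 and 4457 UMIs. Library 4 was highest and library 3 next, and the intervals of libraries 1 and 2 overlapped. The library 2 value came from few cells: its 63 CD8-gated cells held 0 Pdcd1 UMIs, which allows up to 9.45 CPM, and 21 of its 26 UMIs lay in 5.08% of 59 cells outside the gates. Of the 165 T/NK-like cells of library 2, 159 were in a subcluster led by Fabp4, S100a8 and S100a9, genes of endothelial cells and granulocytes, and the part of this in the value was not tested. Endothelial-like cells of library 2 held 0 Pdcd1 UMIs in 4193 cells. A Pdcd1 UMI was found in 42.7% of T/NK-like cells (median 8460 UMIs) and in 0.155% of endothelial-like cells (median 5862.5 UMIs), and after every cell was thinned to 1000 UMIs the T/NK-like share was 12.7%.

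Marker gates split the T/NK-like class into CD8 cells (760), CD4 cells (255), cells with a Foxp3 UMI (92), gamma-delta cells (162) and NK cells (209). The mix of gates differed between libraries. In libraries 1 to 4, CD8 cells with a Gzmb UMI numbered 5, 0, 9 and 572, and NK cells 49, 2, 27 and 131. The part of this mix in the T/NK-like levels by library, of Pdcd1 and of the genes below, was not tested. Pdcd1 was at 232.2 CPM in the CD8, 207.9 in the CD4, 141.2 in the Foxp3, 57.6 in the gamma-delta and 19.98 in the NK gate; 70 cells were in both of the last gates. Within library 4 the CD8 and CD4 gates did not differ beyond counting error (ratio 1.07, 0.982 to 1.17), the Foxp3 gate was below the CD4 gate (ratio 0.595, 0.491 to 0.717), and the CD8 gate was 10.5-fold above NK cells (7.28 to 15.7).

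The highest Pdcd1 level lay in a small subcluster of 54 cells led by Cd163l1, Trdc and Tcrg-C1 and carrying Il17a, markers of interleukin-17-producing gamma-delta T cells. Its level was 498.7 CPM (421.1 to 586.5), and 288.2, 284.7 and 640.8 CPM in libraries 1, 3 and 4, where 11, 11 and 30 of its cells lay; at a coarser resolution of 0.3 the best-matching subcluster held 175.3 CPM. In library 4 this was 2.66-fold (2.12 to 3.29) above the CD8 gate outside the subcluster. The subcluster is described for its highest Pdcd1 level, which favours this ratio, so the ratio is a description only. The same cells held 0 Lag3 UMIs, which allows up to 10.25 CPM, and 3 Havcr2 UMIs. Their Cd274 level in library 4 was 243.1 CPM, against 54.0 CPM in the CD8 gate (ratio 4.50, 3.07 to 6.38). High Pdcd1 with Lag3 under its limit set this subcluster apart from the CD8 and CD4 gates, where both genes were above 200 CPM.

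Lag3, which binds MHC class II, was at 177.5 CPM (172.4 to 182.8) in T/NK-like cells. By library it was 16.9, 1.36, 21.7 and 199.6 CPM, so that library 4 stood above all others; the counts in libraries 1 to 3 were 24, 1 and 19 UMIs. The CD4 gate held 231.5, the CD8 gate 209.9, the Foxp3 gate 194.7, the NK gate 36.4 and the gamma-delta gate 32.8 CPM. In library 4 the CD8 gate was below the CD4 gate for Lag3 (ratio 0.844) and 4.62-fold above NK cells (3.58 to 6.06).

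Lag3 was also measured outside the lymphocytes, at levels that differed between cell types. It was at 29.3 CPM in dendritic-like, 14.9 in pericyte-like, 12.9 in fibroblast-like, 10.8 in Schwann-like and 10.0 in endothelial-like cells, but at 1.11 CPM in granulocyte-like cells. Within library 2, which held most granulocyte-like cells, the pericyte-like level was 9.61 CPM and the granulocyte-like level 1.05 CPM (ratio 9.16, 4.90 to 18.7), with a Lag3 UMI in 8.53% and 0.437% of cells and medians of 6372.5 and 3863 UMIs per cell. In cells without a UMI of Cd3d, Cd3e, Cd3g or Trac, the levels were 14.9 CPM in pericyte-like, 11.8 in fibroblast-like and 10.2 in endothelial-like cells. Of the cells with a Lag3 UMI, some also had a UMI of those T cell genes. They were 29 of 878 endothelial-like, 109 of 882 fibroblast-like and 41 of 204 pericyte-like cells. The fibroblast-like level was 15.5, 2.60, 9.76 and 31.1 CPM by library and the pericyte-like level 18.2, 9.61, 18.5 and 11.1 CPM. The T/NK-like levels of libraries 1 and 2, 16.9 and 1.36 CPM, were not above the pericyte-like ones. The gene Ptms lies 1975 bases from Lag3. Whether RNA from it entered the Lag3 counts outside the lymphocytes was not tested.

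Among endothelial-like cells, Lag3 differed between subclusters of the same library. In library 1 it was at 15.8 CPM in the subcluster led by the haemoglobin genes Hbb-bt and Hba-a2, with Ifit1, Isg15 and Rsad2 also among its leading genes, and at 1.69 CPM in the subcluster led by Aplnr and Rasa4 (ratio 9.35, 4.24 to 25.7). In library 3 the same pair stood at 20.95 and 1.29 CPM (ratio 16.2, 7.39 to 40.5). The haemoglobin genes Hba-a1, Hba-a2, Hbb-bs and Hbb-bt moved with this pair. They took 2.525% and 0.523% of the UMIs in library 1 and 5.479% and 0.183% in library 3. Their part in the result was not tested. Erythroid-like cells themselves held 3.33 CPM of Lag3 (1.77 to 5.69).

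Havcr2 was measured in T/NK-like cells, mainly those of library 4, and in myeloid cells. T/NK-like cells held 53.46 CPM (50.7 to 56.4). The library values were 0, 1.36, 7.98 and 60.3 CPM, with 0 UMIs in library 1 allowing up to 2.11 CPM. CD8-gated cells with a Gzmb UMI, where Havcr2 was high in library 4, numbered 5, 0, 9 and 572 in these libraries. The library values thus compare unlike mixes of T/NK-like cells. The 259 T/NK-like cells without a UMI of Cd3d, Cd3e, Cd3g or Trac held 4.60 CPM (10 UMIs). Macrophage-like cells held 37.9 CPM and, unlike the T/NK-like cells, were near this level in every library, at 41.2, 38.7, 32.4 and 38.5 CPM, so that they lay above the T/NK-like cells in libraries 1 to 3. Against all other cells of the same library, macrophage-like Havcr2 was higher in 4 of 4 libraries (mean log2 difference 2.81 ± 1.66, SD, n = 4, exact permutation p = 0.125). Without cells that had a T cell gene UMI, the macrophage-like level was 37.3 CPM. The subcluster of nonclassical monocyte markers (Ear2, Ace, Adgre4; 104 cells) had the highest myeloid level, 90.6 CPM (73.5 to 110.6), which was 46.01 CPM in the best-matching subcluster at a coarser resolution of 0.3.

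Within CD8-gated cells, Havcr2 was higher in cells with a UMI of Gzmb, which encodes the cytotoxic protease granzyme B. In library 4 the Pdcd1 level, summed over the cells of each group, did not differ beyond counting error. In library 4, the 572 cells with a Gzmb UMI had 92.9 CPM of Havcr2 (1160 UMIs) and the 64 cells without one had 4.63 CPM (3 UMIs), a ratio of 20.1 with a wide interval of 6.85 to 97.5. Pdcd1 was at 242.2 and 232.9 CPM (ratio 1.04, 0.883 to 1.23), Lag3 at 223.4 and 160.4 CPM (ratio 1.39, 1.15 to 1.71) and Tox at 49.7 and 67.9 CPM (ratio 0.733, 0.539 to 1.02). Pdcd1lg2 was higher with Gzmb, at 43.3 against 10.8 CPM (ratio 4.01, 1.93 to 10.0), and Cd274 was lower, at 52.9 against 75.6 CPM (ratio 0.701, 0.524 to 0.957). With 1 CPM added, 2 of the 8 genes (Havcr2 and Pdcd1lg2) passed 2-fold in this comparison, against 19.1% of 11344 genes. The cells with Gzmb were deeper, with medians of 17274.5 and 7230.5 UMIs, and the part of this in the split was not tested. After thinning to 5000 UMIs, as described below, Gzmb was found in 89.9% of CD8-gated cells with Pdcd1 and 81.3% without. The similar Pdcd1 levels of library 4 therefore do not show that the 2 genes are unrelated. Havcr2 was also 3.47-fold (2.72 to 4.51) higher in the CD8 than in the CD4 gate of library 4.

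**Figure D2:**
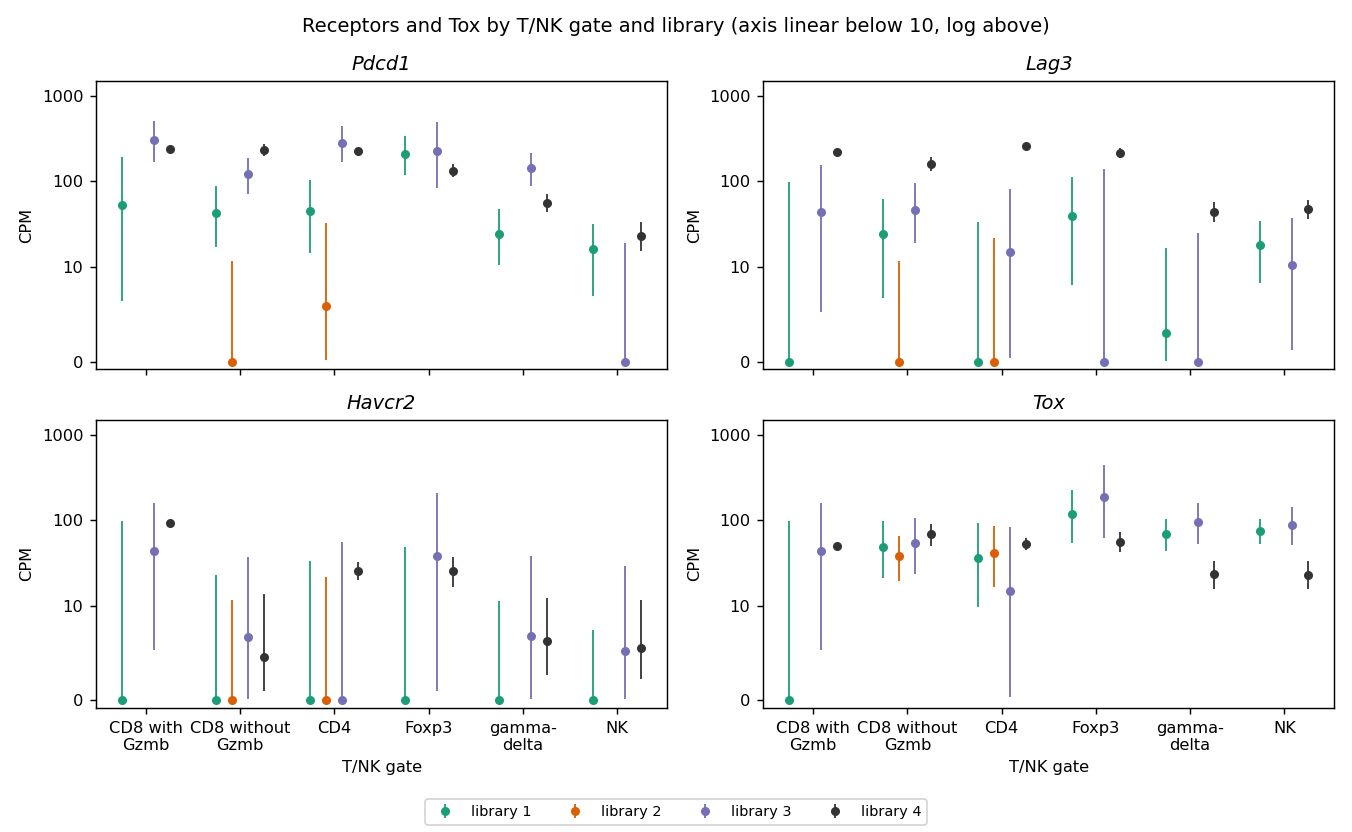
CPM of Pdcd1, Lag3, Havcr2 and Tox in each T/NK gate, with 1 point per library holding at least 5 cells of the gate and exact Poisson 95% intervals as bars; the axis is linear below 10 CPM and logarithmic above. Havcr2 in library 4 is at 92.9 CPM in CD8 cells with Gzmb and 4.63 CPM in those without, while Pdcd1 is at 242.2 and 232.9 CPM. The cells without Gzmb number 64 in library 4 and are shallower, and these levels are not at equal depth.

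The T/NK subcluster led by Ifng, Ccl3 and Zbtb32 (199 cells, all of library 4) had the highest Lag3 and Havcr2 levels but not the highest Pdcd1 level. Lag3 was at 320.8 CPM there and at 214.6 CPM in the larger cycling subcluster of library 4 (ratio 1.495, 1.39 to 1.61), and Havcr2 was at 144.7 and 67.6 CPM (ratio 2.14, 1.90 to 2.41). Pdcd1 ran the other way, at 173.1 against 238.7 CPM (ratio 0.725, 0.659 to 0.797). The subcluster is described for its highest Lag3 and Havcr2 levels. This favours the ratios of those genes, which are a description only.

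Tigit was scarce, with 131 UMIs in all, 112 of them in T/NK-like cells at 4.39 CPM. The Foxp3 gate held 7.89 CPM (3.61 to 14.98) and the CD8 gate 3.68 CPM (2.74 to 4.84). These intervals overlap, the counts were small and an order of the gates was not tested. Tox differed less between libraries than the receptors did: its T/NK-like level was 47.5 CPM, and 62.6, 37.9, 57.0 and 46.4 CPM by library. In NK-gated cells Tox was lower in library 4 than in libraries 1 and 3 together, at 23.1 against 78.5 CPM (ratio 0.294, 0.181 to 0.470), whereas Lag3 was higher there (47.7 against 16.0 CPM, ratio 2.99, 1.56 to 6.30). These cells lay in different subclusters: 108 of the 131 NK-gated cells of library 4 were in one led by Klra4, Gzma and Gzmc, and 46 of 49 and 24 of 27 of those in libraries 1 and 3 in one led by Spp1, Spry2 and Ncr1.

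Cells with more than one receptor were compared at equal depth, since a deeper cell has more chances to show any gene. CD8-gated cells of library 4 were thinned to 5000 UMIs, which left out 82 shallower cells and kept 554, of which 297 had a Pdcd1 UMI. Lag3 was found in 61.6% (55.8 to 67.2) of cells with Pdcd1 and in 42.8% (36.7 to 49.1) of those without. Havcr2 was found in 33.7% (28.3 to 39.4) and 20.2% (15.5 to 25.7). Cd274 was at 23.6% and 24.9%. The proliferation gene Mki67 moved with Pdcd1, at 50.8% against 37.4%. Gzmb was also more frequent with Pdcd1, at 89.9% (85.89 to 93.08) against 81.3% (76.01 to 85.90). In the cells without an Mki67 or Top2a UMI, 62 with Pdcd1 and 111 without, Lag3 was at 64.5% and 32.4%. There Havcr2 was at 37.1% and 12.6%, and Gzmb at 83.9% and 79.3% with overlapping intervals. Of the 5 genes Pdcd1, Lag3, Havcr2, Tigit and Tox, 113 of the 554 cells showed none, 179 showed 2, 90 showed 3, 19 showed 4 and 1 showed all 5. In CD4-gated cells of library 4 the Lag3 shares, 53.3% with Pdcd1 and 46.6% without, had overlapping intervals. In those without an Mki67 or Top2a UMI, Lag3 was in 54.2% of 24 cells with Pdcd1 (32.8 to 74.5). Without Pdcd1 it was in 19.2% of 26 cells (6.56 to 39.4). These intervals also overlap, but overlap alone does not decide whether the shares differ, and no test was made.

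**Figure D3:**
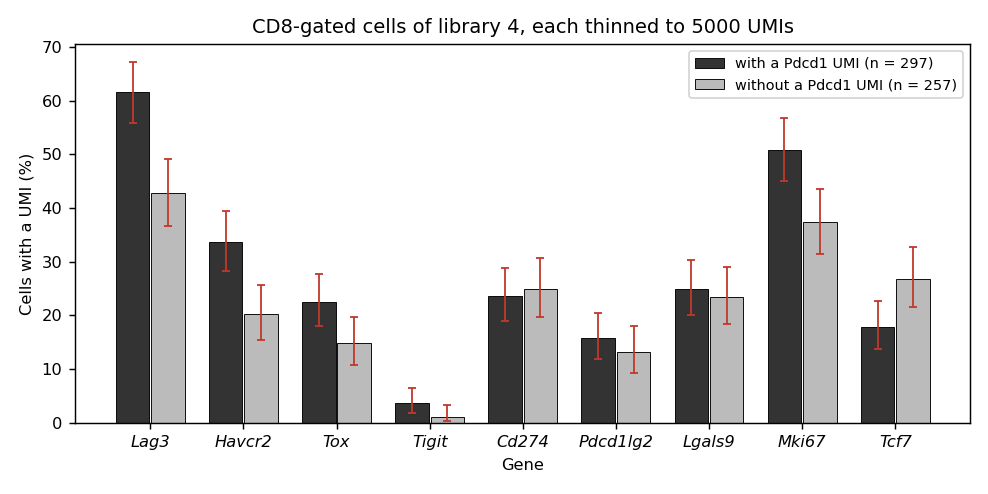
Percent of library 4 CD8-gated cells with a UMI of each gene after thinning to 5000 UMIs, in 297 cells with and 257 cells without a Pdcd1 UMI; bars of error are exact binomial 95% intervals. Lag3 (61.6% against 42.8%) and Havcr2 (33.7% against 20.2%) are more frequent with Pdcd1.

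Cd274 was highest, among the named classes, in macrophage-like cells, at 357.4 CPM (354.1 to 360.7), then in dendritic-like (241.6 CPM), granulocyte-like (211.2 CPM), endothelial-like (119.8 CPM) and B-like cells (102.0 CPM). These pooled values hid differences between libraries: macrophage-like cells held 22.4, 109.3, 20.2 and 481.8 CPM and endothelial-like cells 149.9, 23.2, 47.2 and 748.4 CPM in libraries 1 to 4. Endothelial-like cells were thus above macrophage-like cells in libraries 1, 3 and 4 and below them in library 2. An unnamed cluster of 2499 shallow cells, 2488 of them in library 2, carried 9 endothelial markers and is outside the endothelial-like class. Of the endothelial-like cells of library 2, subclusters of 519 and 501 cells had S100a8 and S100a9 among their leading genes. The part of these cells in the library 2 levels was not tested. Pericyte-like cells (57.5, 7.66, 20.5 and 378.1 CPM) and fibroblast-like cells (8.14, 3.52, 2.89 and 107.7 CPM) were also highest in library 4. B-like cells differed far less, at 114.7, 62.2, 66.1 and 135.7 CPM.

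A cluster of 774 cells without a name, 770 of them in library 4, had the highest Cd274 level of any cluster. It was led by Trim30c, Slfn4 and Asprv1, carried 7 granulocyte markers, and was left unnamed for its low depth. Its level in library 4 was 1538 CPM, 3.19-fold (3.09 to 3.30) above the macrophage-like cells of that library.

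Endothelial-like cells of library 4 were nearly all in 1 subcluster led by Ubd, Cxcl9 and Gbp4, genes that interferon-gamma is known to induce. Cd274 stood there at 757.9 CPM, against 65.8 CPM in the endothelial-like cells of libraries 1 to 3 pooled (ratio 11.5, 11.1 to 11.9). Lgals9 stood at 520.3 against 129.7 CPM (ratio 4.01, 3.87 to 4.15), and Lag3 at 3.88 against 10.6 CPM (ratio 0.367, 0.248 to 0.525). The subcluster and the library cannot be told apart. Within library 1, Cd274 was higher in the haemoglobin-led subcluster than in the Aplnr subcluster (184.9 and 102.8 CPM, ratio 1.799, 1.61 to 2.01). It was higher in library 3 as well (161.1 and 43.1 CPM, ratio 3.74, 3.14 to 4.44). Haemoglobin genes moved with this pair too, by the shares given for Lag3, and their part was not tested. Lgals9 differed little between these subclusters, with ratios of 1.08 (0.978 to 1.21) and 1.17 (1.03 to 1.32).

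Lgals9 was measured in every class, from 21.8 CPM in smooth muscle-like cells upward. It was at 159.7 CPM in endothelial-like, 133.1 in macrophage-like, 99.8 in pericyte-like and 59.2 in T/NK-like cells. By library the endothelial-like level was 131.4, 82.0, 172.4 and 509.1 CPM and the macrophage-like level 66.3, 76.2, 86.0 and 155.6 CPM, so both were highest in library 4.

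**Figure D4:**
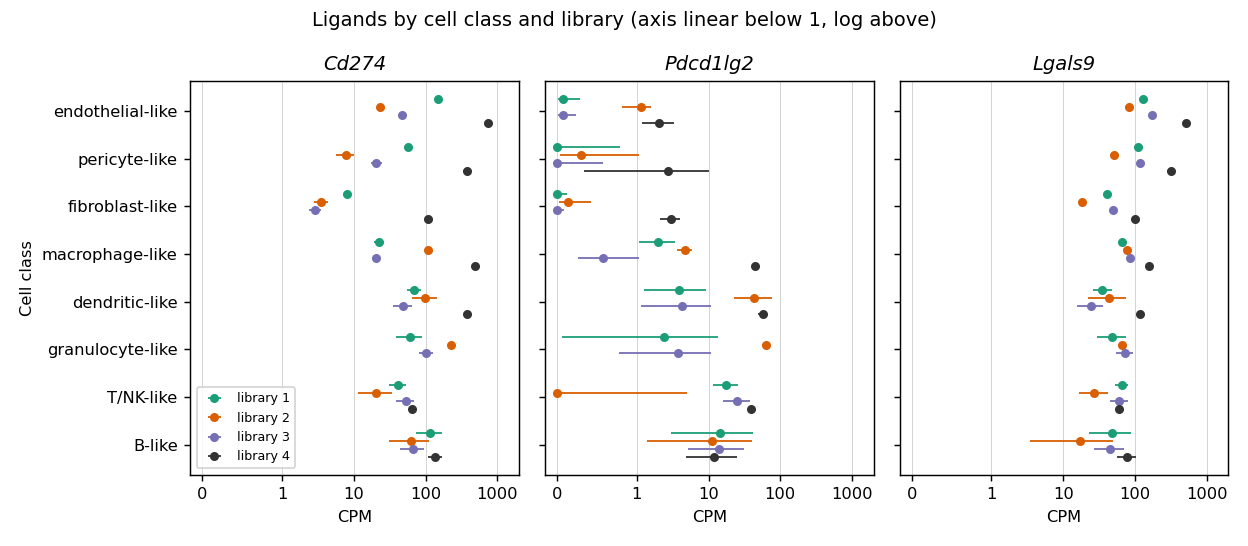
CPM of Cd274, Pdcd1lg2 and Lgals9 in 8 cell classes, with 1 point per library that holds at least 20 cells of the class and exact Poisson 95% intervals as bars; the axis is linear below 1 CPM and logarithmic above. Cd274 in endothelial-like cells spans 23.2 to 748.4 CPM between libraries, while Pdcd1lg2 stays at or below 2.05 CPM there.

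Pdcd1lg2 was low outside the blood-derived classes. It was at 57.15 CPM in granulocyte-like, 36.5 in dendritic-like, 36.3 in T/NK-like and 31.7 in macrophage-like cells, and at 0.581 CPM in endothelial-like cells. In library 4 the macrophage-like level was 43.8 CPM, 21.4-fold (13.3 to 36.7) above the 2.05 CPM of endothelial-like cells, the reverse of the order of Cd274 in the same cells (481.8 and 748.4 CPM). The granulocyte-like level rested on library 2 (62.9 CPM, 720 UMIs). Libraries 1, 3 and 4 held 1, 3 and 0 UMIs. The 0 of library 4 allows up to 199.4 CPM because so few granulocyte-like cells lay there. The unnamed cluster with 7 granulocyte markers, 770 of its 774 cells in library 4, is outside this class. The unnamed clusters together held 74 Pdcd1lg2 UMIs. Macrophage-like cells held 2.01, 4.69, 0.573 and 43.8 CPM in libraries 1 to 4.

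The PD-1 ligands also parted among myeloid subclusters. The Ccl8-led macrophages had 65.78 CPM of Pdcd1lg2 in library 4 and the subcluster with infiltrating monocyte markers (Ly6c2, Plac8, Ccr2) had 6.44 CPM (ratio 10.2, 8.24 to 12.8), while Cd274 was at 376.0 and 435.3 CPM (ratio 0.864, 0.837 to 0.891). Lgals9 did not differ beyond counting error (ratio 0.959, 0.912 to 1.01). With 1 CPM added, 2 members (Pdcd1lg2 and Lag3) of the 7 tested passed 2-fold, against 8.15% of 12732 genes. With 10 CPM added only Pdcd1lg2 did. The Ccl8 subcluster had the highest Pdcd1lg2 level of the myeloid subclusters and Pdcd1lg2 among its leading genes. Its use in this pair favours the passing of Pdcd1lg2, so the count is a description only. The Nos2-led inflammatory macrophages had the highest macrophage level of Cd274, 603.5 CPM, and 33.7 CPM of Pdcd1lg2. The Arg1 macrophages, mostly of library 2, had 119.4 and 5.03 CPM, and the macrophages led by Gdf15 and Fcrls, mostly of libraries 1 and 3, had 19.9 and 0.845 CPM.

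Most dendritic-like cells were shallow (median 1215 UMIs), so the subcluster of 430 deeper cells with Flt3, Cd209a and Xcr1 was used for this cell type. A shallow subcluster of macrophage-like and dendritic-like cells (768 cells, median 1110 UMIs) carried Cxcl9 and Nos2, with Gzmb, Ifng and Nkg7 among its leading genes. The part of such cells in the pooled dendritic-like values was not tested. Of the deeper subcluster, the 79 cells with UMIs of both Ccr7 and Fscn1, genes of migratory mature dendritic cells, were set against the 263 with neither. Cd274 was higher with the maturation genes in each library with several such cells: 304.6 against 20.6 CPM in library 1 (ratio 14.8, 8.02 to 28.8), 224.2 against 11.9 CPM in library 3 (ratio 18.9, 7.89 to 49.8) and 705.9 against 358.6 CPM in library 4 (ratio 1.97, 1.76 to 2.21). These rest on 9, 8 and 61 cells with the genes. Havcr2 ran the other way, with ratios of 0.162 (0.0192 to 0.607), 0.119 (0.00296 to 0.684) and 0.243 (0.102 to 0.499) in the same libraries. Pdcd1lg2 was at 139.5 against 79.9 CPM in library 4 (ratio 1.75, 1.35 to 2.25). With 1 CPM added, 2 of the 6 members tested passed 2-fold in library 4, Pdcd1 upward (17.8 against 5.32 CPM, from 13 and 11 UMIs) and Havcr2 downward, against 27.4% of 9078 genes.

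**Figure D5:**
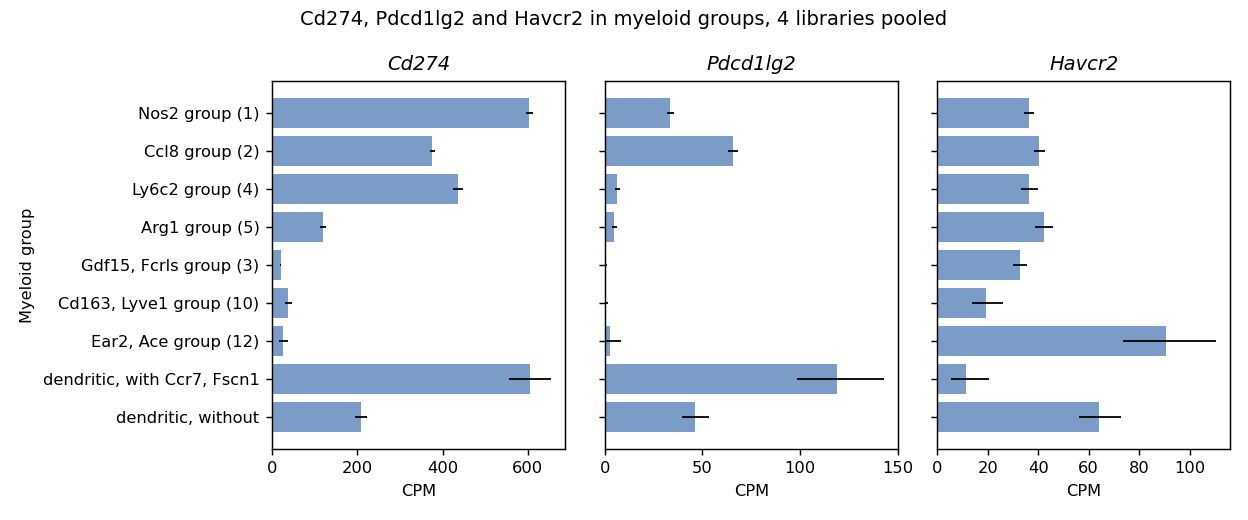
CPM of Cd274, Pdcd1lg2 and Havcr2 in 7 macrophage or monocyte subclusters, named by leading genes with the subcluster number in brackets, and in dendritic cells with or without Ccr7 and Fscn1, 4 libraries pooled; bars of error are exact Poisson 95% intervals. Pdcd1lg2 is at 65.74 CPM in the Ccl8 group and 6.44 CPM in the Ly6c2 group while Cd274 is at 375.9 and 435.3 CPM.

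Of a list of 36 further genes of the pathway, 10 were at least 2-fold higher in T/NK-like cells with 1 CPM added, against 8.65% of all genes. These included 6 of 9 other inhibitory receptors, among them Ctla4, which competes for the costimulatory ligands, at 321.4 CPM and Cd160 at 129.5 CPM, against 2.23 and 0.587 CPM in all other cells. The activating counterpart of TIGIT, Cd226, was at 34.5 CPM against 0.719 CPM. Of 7 exhaustion-related transcription factors and surface markers, Nr4a2 (222.4 CPM) and Nr4a1 (188.3 CPM) did not pass, and the 2 that did were Batf (118.4 CPM) and Slamf6 (60.1 CPM), named after their values were seen. Of the 6 genes of interferon-gamma signalling 1 passed, Ifngr1, a chain of the receptor, at 485.9 against 198.9 CPM. None of the 11 ligands and ligand partners passed, Hmgb1 (918.2 CPM) and Lgals3 (277.4 CPM) included, and neither phosphatase did, with Ptpn6 at 138.4 CPM and Ptpn11 at 51.2 CPM. The class levels of the pathway genes, here and below, pool the 4 libraries and were not compared within libraries. Library 4 held 1404 of the 1866 T/NK-like cells.

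In macrophage-like cells 11 of the 36 passed (background 6.92%), among them the inhibitory receptor Vsir (174.0 CPM), the lectin Lgals3 (2054 CPM) and the phosphatase Ptpn6 (413.9 CPM). In endothelial-like cells 4 passed, a share near the background of 8.76%: Ceacam1, a TIM-3 partner (69.2 CPM), Irf1, a transcription factor induced by interferon-gamma (635.5 CPM), and, named after their values were seen, Nectin2 (56.8 CPM) and Tox2 (23.9 CPM). The count was 6 each in granulocyte-like (background 5.33%) and dendritic-like cells (background 4.42%). In the CD8 comparison by Gzmb, 8 of the 33 tested were higher and 3 lower, against 19.1% of all genes in either direction, and with 10 CPM added 2 were higher and 2 lower. Of the 8, Ceacam1, Klrg1 and Cd80, named after their values were seen, had 0 UMIs in the cells without Gzmb. Slamf6, likewise named after its values were seen, was at 43.2 CPM with Gzmb and 145.0 CPM without.

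The genes whose log2(CPM + 1) was most like each member's over the 26 clusters were named by Pearson correlation, as a description over clusters that share libraries. For Pdcd1 these were Klre1 (0.982), Cd8a (0.966) and Tbx21 (0.962). For Cd274 they were Samhd1 (0.894), Nlrc5 (0.865) and Oasl1 (0.859), and for Lgals9 Adar (0.842), Rnf213 (0.834) and Clic1 (0.833). Pdcd1lg2 had Ly6c2 (0.93) and Sla (0.888) among its nearest, and Havcr2 was nearest to Fyb (0.955), Myo1f (0.953) and Cd244 (0.953). Lag3 was nearest to Ikzf2 (0.818), Cd4 (0.787) and Gata3 (0.786), and Tox to Samd3 (0.85), Cd96 (0.85) and Klrc2 (0.847). Tigit, which stayed under 10 CPM in every cluster, was nearest to Ncr1 (0.979), Foxp3 (0.968) and Pglyrp2 (0.958). All T/NK-like cells formed 1 of the 26 clusters, so these correlations cannot tell apart genes of different T/NK gates. Among the members, Cd274 and Pdcd1lg2 correlated at 0.723, Pdcd1 and Tox at 0.795 and Havcr2 and Pdcd1lg2 at 0.772.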

How the data were processed

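The authors aligned 10x 3′ reads with Cell Ranger to the mouse genome mm10 and deposited, for the 4 grafts together, 1 matrix of raw counts (UMIs per gene and cell). Groups follow the labels, but the barcode suffixes were not mapped to grafts, so no comparison between graft types was made. Cells with over 200 genes and under 20% mitochondrial UMIs were kept, mitochondrial genes were removed, and the 5% of cells per library with the highest doublet score from artificial doublets (50 neighbours) were left out. The study states fewer cells than these filters left. Cells were clustered on 2000 variable genes, without the members and pathway genes, with 10 principal components, 30 neighbours and Leiden resolution 0.8 (leidenalg 0.10.2; subclusters 0.5). Clusters were named from marker lists with at least 3 markers. CPM intervals are exact Poisson, shares Clopper-Pearson and ratios conditional binomial. Classes with at least 20 cells in a library were set against all other cells of that library by an exact two-sided sign-flip permutation test of log2(CPM + 1) over libraries. Genes with a UMI in at least 10 cells were compared for 2-fold differences. All members were named, with the 2 highest genes of a pathway group in a class and the 3 most similar genes per member, among genes reaching 10 CPM in a cluster. The members and lists were chosen with earlier results of these data known. The splits by T cell gene UMIs, Ccr7 and Fscn1, and the thinning to 5000 UMIs were chosen after seeing the data. Scripts were tested on simulated data. Annotation positions are GRCm38. Results for a few genes are not reported here.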

Additional observations from a re-analysis of the deposited data

How the results depend on the processing

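No paired analysis was possible because no barcode suffix is tied to a graft, so the replicate numbers of the grafts pair nothing; cell classes were instead compared within libraries, in a test chosen after seeing the data. The main results were the level in the highest class, that in the highest subcluster for members described there, and the counts past 2-fold. Of the alternatives tried for these, 37 moved the value outside its counting interval or the count by over 1.5 times, and 37 did not. Leaving out a library is not in this count, and it moved 21 main values and left 41. For the other results, 14 alternatives moved the value and 13 did not. With doublets kept, the T/NK-like levels were 171.0 (Pdcd1), 169.9 (Lag3) and 44.19 (Tox), granulocyte-like Pdcd1lg2 50.14 and endothelial-like Lgals9 156.8 CPM. Cd274 in macrophage-like cells was 361.3 at resolution 1.6, and Lgals9 was 156.3 with at least 500 genes per cell. With each cell weighted equally the class levels were 163.4 (Pdcd1), 395.3 (Cd274), 153.9 (Lag3), 40.7 (Havcr2) and 138.0 (Lgals9), and the subcluster levels 378.0 (Lag3) and 161.6 (Havcr2) in the Ifng subcluster, 669.6 (Cd274, Nos2 subcluster) and 151.6 (Lgals9, monocyte subcluster). With each library weighted equally they were 94.52 (Pdcd1), 158.4 (Cd274), 17.28 (Pdcd1lg2), 59.87 (Lag3), 17.42 (Havcr2), 223.7 (Lgals9), 2.015 (Tigit) and 51.0 (Tox). With classes gated by markers they were 353.9 (Cd274), 51.52 (Pdcd1lg2), 191.2 (Lag3), 56.84 (Havcr2) and 146.1 (Lgals9). Subclusters at resolution 0.3 gave 175.3 (Pdcd1), 510.1 (Cd274), 48.81 (Pdcd1lg2), 46.01 (Havcr2) and 153.5 (Lgals9). With 10 CPM added, the dendritic-like, Ccl8 macrophage and Ccr7 comparisons each had 1 member past 2-fold.

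Leaving out each library in turn gave 57.97 to 189.9 (Pdcd1), 56.42 to 405.0 (Cd274), 3.258 to 60.74 (Pdcd1lg2), 14.49 to 187.0 (Lag3), 2.635 to 56.62 (Havcr2), 129.7 to 197.1 (Lgals9), 1.317 to 4.528 (Tigit) and 46.56 to 55.01 CPM (Tox) in the class that was highest with all libraries. That class was held fixed and need not stay highest. Without library 4, T/NK-like Havcr2 lay below the macrophage-like levels, and macrophage-like Cd274 below the endothelial-like level of libraries 1 to 3. The lowest value was without library 4 for Pdcd1, Cd274, Lag3, Havcr2, Lgals9 and Tigit, and without library 2 for Pdcd1lg2. In subclusters the ranges were 375.8 to 568.5 (Pdcd1), 7.100 to 7.192 (Tigit), 61.71 to 67.62 (Tox), 603.2 to 603.5 (Cd274), 65.74 to 65.78 (Pdcd1lg2) and 59.6 to 104.1 (Havcr2, nonclassical monocyte markers); the Ifng and monocyte subclusters lie in library 4 alone and had no value without it. Few counts limit Tigit, T/NK-like Havcr2 in libraries 1 to 3 and Lag3 in the Il17a subcluster. CD8-gated cells with a Gzmb UMI were also few in libraries 1 to 3.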
